A study of Mus musculus with 30 samples.

Results

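The 10 genes described here carry sugars into brain cells, trap them as phosphates, sense them or store them, and were measured as RNA in the forebrain and in isolated microglia of mice that lacked interleukin 34 or received an antibody against it. They are Slc2a5, Slc2a1, Slc2a3, Khk, Mlxipl, Txnip, Hk1, Hk2, Hk3 and Ppp1r3b, taken by their symbols from a count table of 51752 genes, and all 10 were tested in every one of the 9 comparisons. They were chosen with results of these comparisons known. Their differences between arms are therefore given as descriptions without a p-value, and where they are counted among the genes past a threshold of the fit over the whole table, the count supports nothing. Bulk RNA-seq was made from 15 animals in 4 arms, each animal giving 1 forebrain library and 1 library of microglia isolated from the opposite hemisphere through the surface protein CD11b. Genetic loss was studied in 4 IL34 Het mice (2 male, 2 female) and 3 IL34 KO mice (1 male, 2 female). Antibody treatment was studied in WT mice, of which 4 received the control antibody anti-gp120 (2 male, 2 female) and 4 received anti-IL34 (3 male, 1 female). The controls of the deletion therefore carried 1 disrupted Il34 allele, while the controls of the antibody were wild type. Age, antibody dose and treatment time are not given in the sources used here, nor are the nature of the KO allele and the cells in which it acts.

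IL-34 is a ligand of CSF1R, the receptor on which microglia depend for survival, and in the brain it is made mainly by neurons. Glucose enters brain cells through facilitative carriers of the SLC2 family: SLC2A1 (GLUT1) serves the blood-brain barrier and glia, SLC2A3 (GLUT3) serves neurons, and SLC2A5 (GLUT5) carries fructose and is a known feature of microglia. Hexokinases phosphorylate glucose and ketohexokinase phosphorylates fructose. Mlxipl encodes ChREBP, a transcription factor that with its partner MLX binds paired E-box-like elements when glucose metabolites accumulate, and Txnip, whose product restrains glucose uptake, is among its best known target genes.

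Libraries held 15064391 to 75158213 counts, and levels are given as CPM (counts scaled to a common library total) after 1 trimmed-mean scaling of all 30 libraries. Il34 itself lay at 6.44 to 7.92 CPM in KO forebrain and at 18.6 to 22.9 CPM in Het forebrain. In the isolates its KO range of 5.56 to 7.12 CPM lay inside the Het range of 5.08 to 10.5 CPM. The summed level of 10 microglia markers averaged 14908 CPM in Het isolates and 254 CPM in Het forebrain, and each of these markers was detected in every library. Under IL34 loss this sum was lower in both tissues, at 4904 CPM in KO isolates (4589 to 5321), 7640 CPM in anti-IL34 isolates (6406 to 9800) against 17178 CPM in anti-gp120 isolates, 113 CPM in KO forebrain and 186 CPM in anti-IL34 forebrain against 436 CPM with anti-gp120. The isolates also held RNA of other cells: 7 neuron markers summed to 279 CPM in Het (111 to 424), 537 CPM in KO (394 to 620), 364 CPM in anti-gp120 (204 to 593) and 673 CPM in anti-IL34 isolates (453 to 779). Tubb3, 1 of those 7, had no count in any library. Summed astrocyte markers ranged from 969 to 2726 CPM in Het, 3406 to 3488 CPM in KO, 1305 to 4019 CPM in anti-gp120 and 2486 to 4168 CPM in anti-IL34 isolates, separate between arms for the deletion only. Those of the oligodendrocyte lineage ranged from 2888 to 9611 CPM, 7615 to 17116 CPM, 3877 to 9267 CPM and 5944 to 12477 CPM in the same order, with overlap. Choroid plexus markers summed to 1674 to 3966 CPM in Het, 1155 to 3264 CPM in KO and 4.24 to 8.26 CPM in anti-gp120 isolates, while anti-IL34 animals 2, 10, 11 and 24 gave 5.38, 2236, 589 and 35.5 CPM. Summed markers of border macrophages, which also carry CD11b, were lower without overlap with antibody, at 290.1 to 411 CPM in anti-IL34 against 438 to 769 CPM in anti-gp120 isolates and 5.56 to 11.7 against 13.2 to 18.8 CPM in forebrain, and overlapped with deletion, at 301 to 677 CPM in KO against 597 to 738 CPM in Het isolates. None of the 5 passed by edgeR in either isolate comparison, with 2 lower at an unadjusted p under 0.05 in anti-IL34 isolates, beside 15.3% of all genes. All 5 choroid plexus markers were higher in anti-IL34 isolates at an unadjusted p under 0.05 by edgeR, with a median log2 fold change of 3.47, beside 10.6% of all genes, and none passed after adjustment. Summed markers of neutrophils and monocytes ranged from 36.3 to 48.3 CPM in Het and 32.4 to 83.3 CPM in KO isolates. They ranged from 40.0 to 274 CPM in anti-gp120 and 129 to 418 CPM in anti-IL34 isolates, so each pair of arms overlapped. The part of these other cells in the values below was not tested. Among control isolates, anti-gp120 animal 15 had the highest neuron marker sum, 593 CPM, and Het animal 21 the lowest, 111 CPM. In these bulk libraries, fewer cells of a type and less RNA per cell cannot be told apart.

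The loci are given on GRCm38. Slc2a5 (ENSMUSG00000028976) lies on the plus strand of chromosome 4 at 150119283 to 150144169, Khk (ENSMUSG00000029162) on the plus strand of chromosome 5 at 30921431 to 30931248, Mlxipl (ENSMUSG00000005373) on the plus strand of chromosome 5 at 135089890 to 135138382 and Txnip (ENSMUSG00000038393) on the plus strand of chromosome 3 at 96557957 to 96561883. RefSeq promoters on GRCm38.p6 were matched for 8 of the 10 genes, as 10 entries, and the 250 bases before each start were searched on both strands for CACGTG, the simplest E box, and for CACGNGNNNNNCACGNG, a spaced pair of E-box-like sites of the kind ChREBP binds, inside which CACGTG can also occur. The spaced pair occurred in 15 of 32851 promoter entries (0.0457%) and CACGTG in 1978 (6.02%). Of the 10 entries for these genes, that of Txnip held the spaced pair, 85 to 69 bases before its start. CACGTG occurred in Khk, 71 to 66 bases before its start, and at the upstream of the 2 starts of Mlxipl, 98 to 93 bases before it, while the other 7 entries held no match. The counts do not separate the 2 Mlxipl starts, and a match is a description of the letters, not a binding site. The 3 promoters with a match are printed because they belong to the sensor gene, its known target and the fructose kinase, and that of Slc2a5 because its RNA differed most between arms in 3 of the 4 comparisons. All are 5′ to 3′ on the plus strand and end at the base before the start, with matches in capitals.
Txnip chr3:96557707-96557956: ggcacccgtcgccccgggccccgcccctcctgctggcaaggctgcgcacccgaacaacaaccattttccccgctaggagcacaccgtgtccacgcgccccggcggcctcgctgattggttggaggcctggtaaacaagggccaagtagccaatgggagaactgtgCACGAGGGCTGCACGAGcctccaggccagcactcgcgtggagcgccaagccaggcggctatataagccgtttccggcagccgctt
Mlxipl, upstream start chr5:135089640-135089889: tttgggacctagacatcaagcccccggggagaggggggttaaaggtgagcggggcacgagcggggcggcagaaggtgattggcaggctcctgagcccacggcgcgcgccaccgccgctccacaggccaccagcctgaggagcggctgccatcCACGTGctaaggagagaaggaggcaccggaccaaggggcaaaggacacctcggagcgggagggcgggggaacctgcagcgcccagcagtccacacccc
Khk chr5:30921309-30921558: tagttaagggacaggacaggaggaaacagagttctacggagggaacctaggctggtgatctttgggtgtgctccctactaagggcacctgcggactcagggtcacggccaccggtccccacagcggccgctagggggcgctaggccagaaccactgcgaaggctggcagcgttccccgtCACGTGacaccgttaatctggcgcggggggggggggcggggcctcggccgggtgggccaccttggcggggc
Slc2a5 chr4:150119094-150119343: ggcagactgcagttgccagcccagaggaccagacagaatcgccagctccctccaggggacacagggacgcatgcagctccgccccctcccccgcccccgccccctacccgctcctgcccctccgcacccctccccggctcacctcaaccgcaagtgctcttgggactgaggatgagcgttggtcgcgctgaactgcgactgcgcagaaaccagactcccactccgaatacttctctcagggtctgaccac

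In the 8 control animals (4 Het and 4 anti-gp120), the genes fell into a set with far more RNA in isolated microglia than in forebrain and a pair with more in forebrain. The plot of control levels per exon length shows both. Txnip was 66.4-fold, Hk2 64.8-fold, Slc2a5 52.4-fold, Hk3 50.1-fold, Mlxipl 48.4-fold and Ppp1r3b 37.3-fold higher in isolates. For Slc2a1 and Khk the difference was smaller, 6.46-fold and 6.07-fold. All 6 endothelial markers were also higher in isolates, with a median log2 fold change of 2.37 (1.81 to 2.66). That of Slc2a1 was 2.69, and the median of 10 microglia markers was 5.49. The part of endothelial RNA in the isolate level of Slc2a1 was not tested. Slc2a3, the neuronal glucose carrier, was 8.56-fold lower in isolates, and Hk1, the hexokinase of most tissues and of neurons, 2.68-fold lower. Per kilobase of exon, the order of mean levels in control isolates was Txnip (418 CPM per kb), Slc2a1 (96.7), Hk2 (53.2), Slc2a5 (35.9), Hk3 (24.0), Mlxipl (20.2), Hk1 (13.6), Khk (11.1), Ppp1r3b (7.66) and Slc2a3 (2.86). The range of Txnip over the 8 animals was separate from that of Slc2a1, and below it each neighbouring pair overlapped except Ppp1r3b and Slc2a3. In control forebrain the order was Hk1 (35.2 CPM per kb), Slc2a3 (23.7), Slc2a1 (14.4), Txnip (6.03), Khk (1.76), Hk2 (0.775), Slc2a5 (0.688), Hk3 (0.486), Mlxipl (0.406) and Ppp1r3b (0.196). There the ranges of the first 5 genes and of Ppp1r3b were each separate from those of their neighbours, and the ranges of Hk2, Slc2a5, Hk3 and Mlxipl overlapped from one to the next. All 10 genes passed the adjusted threshold of 0.05 between tissues (edgeR quasi-likelihood F test with Benjamini-Hochberg adjustment over 19952 genes) and did not overlap between tissues, where 83.5% of all genes tested passed and 59.7% did not overlap.

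**Figure D1:**
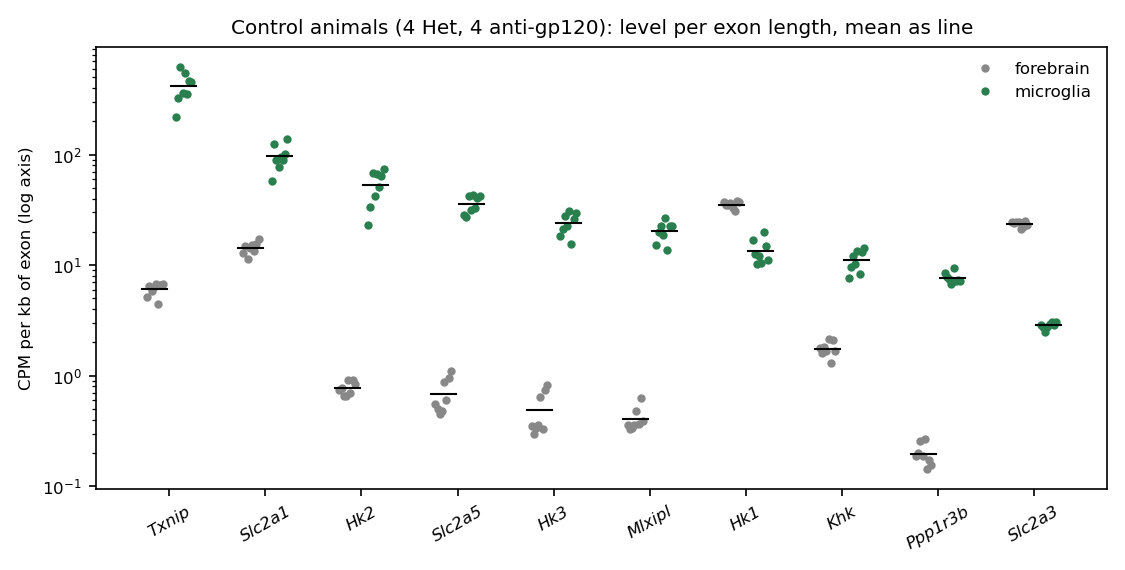
Level of each gene per kilobase of exon, on a log axis, in forebrain (grey) and isolated microglia (green) of the 8 control animals, with 1 point per library and a line at the mean. Slc2a3 and Hk1 are higher in forebrain, with means of 23.7 and 35.2 CPM per kb, and the other 8 genes are higher in isolates.

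Slc2a5, the fructose carrier, had the largest differences between arms of the 10 genes in 3 of the 4 comparisons. In isolated microglia of Het animals 1, 20, 21 and 23 it was measured at 96.7, 92.2, 143 and 107 CPM, and in KO animals 3, 6 and 24 at 24.2, 29.4 and 23.9 CPM. Anti-gp120 animals 1, 7, 8 and 15 gave 145, 139, 144 and 111 CPM in isolates, and anti-IL34 animals 2, 10, 11 and 24 gave 15.4, 15.8, 29.7 and 14.9 CPM. Every library of both IL34-loss arms was below every control library, and anti-IL34 animal 11, the only female of its arm, was the highest of that arm. The means were 109.8 ± 22.9 CPM (SD, n = 4) in Het and 25.9 ± 3.08 CPM (n = 3) in KO isolates, which is 4.21-fold lower (log2 fold change -2.07, SE 0.18). With antibody they were 135 ± 16.1 CPM and 19.0 ± 7.19 CPM (n = 4 each), which is 6.86-fold lower (log2 fold change -2.78, SE 0.22).

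Whole forebrain showed the same direction at levels near 1 CPM. Slc2a5 was at 1.87, 1.70, 1.53 and 1.64 CPM in Het animals 1, 20, 21 and 23 and at 0.699, 0.797 and 0.942 CPM in KO animals 3, 6 and 24. It was at 2.96, 3.24, 3.72 and 2.05 CPM in anti-gp120 animals 1, 7, 8 and 15 and at 0.936, 0.488, 0.620 and 0.504 CPM in anti-IL34 animals 2, 10, 11 and 24. The treated and control arms did not overlap in either experiment, and the fewest Slc2a5 reads in a forebrain library were 12. The log2 fold change was -1.05 (SE 0.20) with deletion and -2.27 (SE 0.27) with antibody. In both tissues the arms ranked anti-gp120, Het, KO and anti-IL34 from high to low, with KO and anti-IL34 overlapping, and anti-gp120 and Het overlapping in the isolates but not in forebrain.

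Khk, whose product phosphorylates the fructose that enters, was measured in isolates at 13.7, 17.4, 21.9 and 18.5 CPM in Het animals 1, 20, 21 and 23 and at 7.60, 10.6 and 8.64 CPM in KO animals 3, 6 and 24. The arms did not overlap, and Khk was lower in KO isolates by 2.06-fold (log2 fold change -1.04, SE 0.19). In anti-gp120 isolates it ranged from 14.9 to 25.6 CPM and in anti-IL34 isolates from 11.4 to 15.8 CPM, overlapping only through anti-gp120 animal 15 and anti-IL34 animal 11, with a log2 fold change of -0.74 (SE 0.19). Forebrain Khk was at 3.08 ± 0.155 CPM in Het against 2.35 ± 0.265 in KO animals, without overlap (log2 fold change -0.32, SE 0.13), and at 3.24 ± 0.718 in anti-gp120 against 3.04 ± 0.830 in anti-IL34 animals, with overlap.

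**Figure D2:**
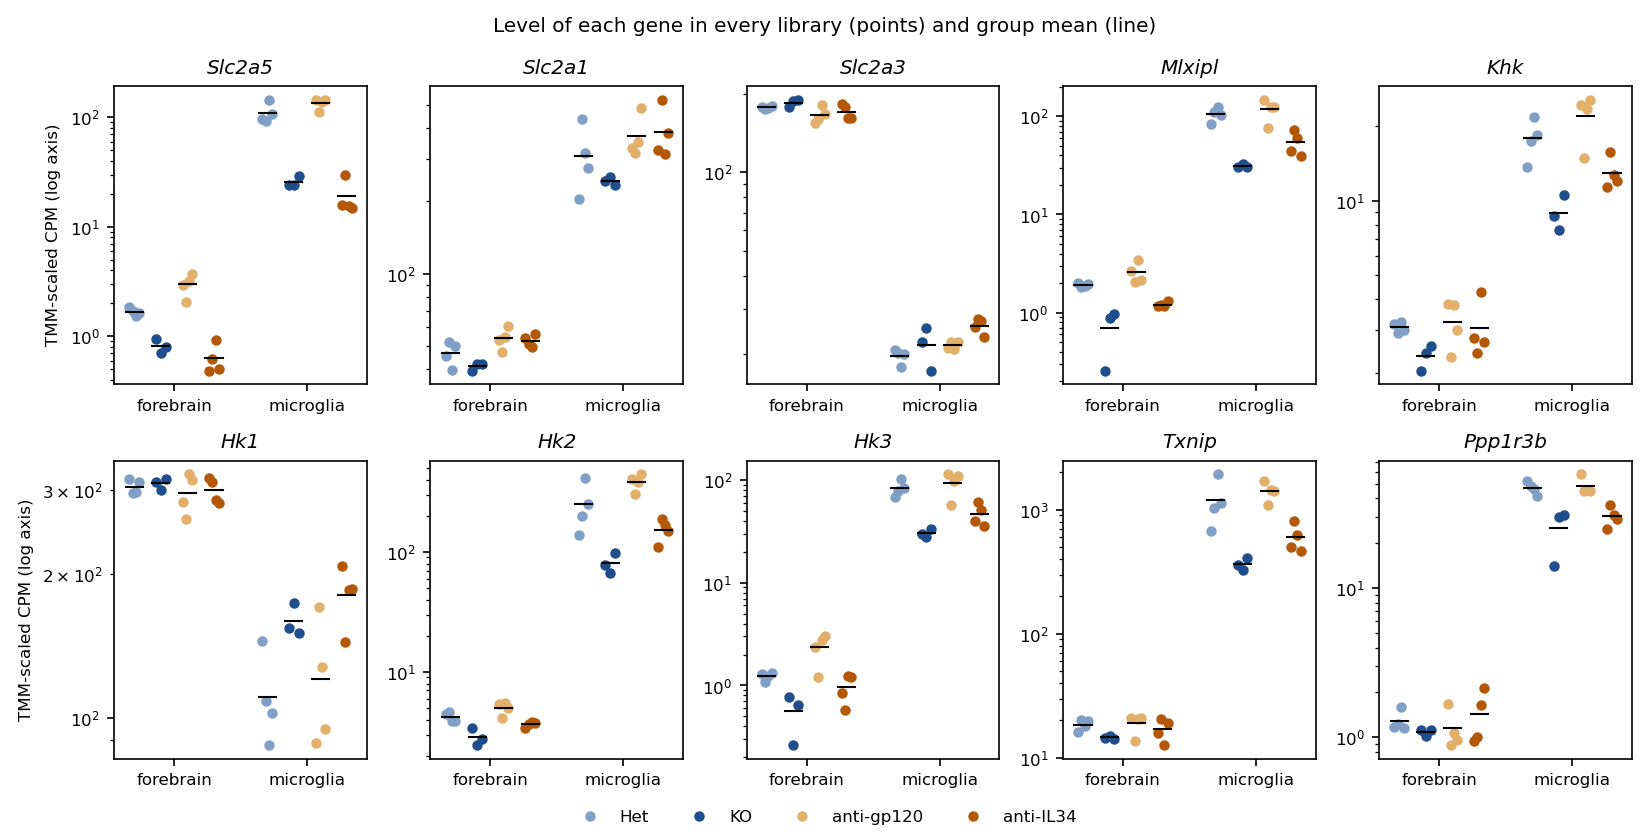
TMM-scaled CPM of each of the 10 genes in every library, on log axes that differ between panels, grouped by tissue and arm, with 1 point per library and a line at the group mean. Slc2a5, Mlxipl, Hk2, Txnip and Ppp1r3b are lower in every KO and anti-IL34 isolate than in the isolates of their own controls.

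Mlxipl, the sensor gene, was also lower in every IL34-loss library than in its controls. In Het isolates 1, 20, 21 and 23 it was at 83.4, 111, 125 and 104 CPM, and in KO isolates 3, 6 and 24 at 33.0, 30.4 and 30.2 CPM. In anti-gp120 isolates 1, 7, 8 and 15 it was at 148, 125, 124 and 76.7 CPM, and in anti-IL34 isolates 2, 10, 11 and 24 at 60.6, 44.1, 73.3 and 39.2 CPM. The KO values were tightly grouped and far from the Het values, whereas the antibody arms were separated by the small gap between anti-gp120 animal 15 and anti-IL34 animal 11. The log2 fold change was -1.76 (SE 0.16) with deletion and -1.10 (SE 0.26) with antibody.

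In forebrain, Mlxipl was at 1.98, 1.82, 1.88 and 1.98 CPM in Het animals 1, 20, 21 and 23 and at 0.874, 0.978 and 0.257 CPM in KO animals 3, 6 and 24. The lowest of these, KO animal 24, rested on 6 reads. With anti-gp120 it was at 2.67, 3.47, 2.16 and 2.05 CPM in animals 1, 7, 8 and 15, and with anti-IL34 at 1.17, 1.16, 1.19 and 1.30 CPM in animals 2, 10, 11 and 24. Neither pair of arms overlapped, and the log2 fold changes were -1.28 (SE 0.27) and -1.15 (SE 0.19). Unlike Slc2a5, Mlxipl was lowest in KO: its order in both tissues was anti-gp120, Het, anti-IL34 and KO, and no neighbouring arms overlapped except anti-gp120 and Het in the isolates.

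Txnip, the target gene with the spaced pair in its promoter, was the most abundant of the 10 genes in the isolates. It was at 677, 1024, 1930.1 and 1132 CPM in Het animals 1, 20, 21 and 23 and at 326, 410.5 and 361 CPM in KO animals 3, 6 and 24. It was at 1709, 1454, 1412 and 1099.7 CPM in anti-gp120 animals 1, 7, 8 and 15 and at 622, 499, 809 and 465 CPM in anti-IL34 animals 2, 10, 11 and 24. Neither pair of arms overlapped, although the Het values were spread widely from animal 1 to animal 21. The log2 fold change was -1.69 (SE 0.38) with deletion and -1.22 (SE 0.22) with antibody. In forebrain the KO mean was 14.6 ± 0.454 CPM against 18.5 ± 1.78 in Het, without overlap, and the antibody arms overlapped at 19.2 ± 3.60 and 17.0 ± 3.48 CPM. Gm15441 runs antisense over all 3927 bases of Txnip and, without strand information, its reads could not be told from those of Txnip. The reads assigned to Gm15441 came to 0.878 CPM in Het and 0.422 CPM in KO isolates, and to 1.11 CPM in anti-gp120 and 0.594 CPM in anti-IL34 isolates, and the part of antisense reads in the Txnip counts was not tested.

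Of the 3 hexokinases, Hk2 and Hk3 had negative log2 fold changes in all 4 comparisons, whereas those of Hk1 were positive. Hk2, the inducible form bound to mitochondria, was measured in isolates at 139, 199, 411 and 252 CPM in Het animals 1, 20, 21 and 23 and at 66.4, 97.2 and 78.3 CPM in KO animals 3, 6 and 24. Its antibody arms were at 402, 386, 444 and 305 CPM in anti-gp120 animals 1, 7, 8 and 15 and at 167, 111, 189 and 148 CPM in anti-IL34 animals 2, 10, 11 and 24. Both pairs of arms were separate, with Het animal 21 again the highest of its arm. Hk2 was lower in anti-IL34 isolates by 2.42-fold (log2 fold change -1.28, SE 0.19), and in KO isolates the log2 fold change was -1.64 (SE 0.39). Its forebrain level was 4.24 ± 0.384 CPM in Het against 2.87 ± 0.475 in KO and 5.01 ± 0.615 in anti-gp120 against 3.67 ± 0.177 in anti-IL34 animals, without overlap.

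Hk3, a hexokinase of myeloid cells, was at 67.4, 78.7, 102 and 82.5 CPM in Het isolates 1, 20, 21 and 23 and at 27.5, 33.0 and 30.05 CPM in KO isolates 3, 6 and 24. Every KO value lay below every Het value, with a log2 fold change of -1.47 (SE 0.16), or 2.77-fold lower. Anti-gp120 isolates spanned 57.2 to 113 CPM and anti-IL34 isolates 35.3 to 61.2 CPM, overlapping through anti-gp120 animal 15 (log2 fold change -0.98, SE 0.25). The forebrain means were 1.23 ± 0.103 CPM in Het, 0.562 ± 0.266 in KO, 2.34 ± 0.805 in anti-gp120 and 0.964 ± 0.319 in anti-IL34 animals. Hk3 shares 34 bases with its convergent neighbour Unc5a, which was at 39.1 CPM in Het forebrain and 3.47 CPM in Het isolates, so part of the low forebrain count of Hk3 is uncertain.

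Hk1 was higher rather than lower in the isolates under IL34 loss. It was at 145, 108, 87.7 and 102 CPM in Het animals 1, 20, 21 and 23 and at 174, 151 and 154 CPM in KO animals 3, 6 and 24, which did not overlap. The antibody arms overlapped, with means of 121 ± 37.5 CPM in anti-gp120 and 181 ± 26.8 CPM in anti-IL34 isolates. The log2 fold changes were 0.54 (SE 0.19) and 0.60 (SE 0.26). Mean sums of neuron markers in the same isolates were higher in both IL34-loss arms, as given above. Astrocyte and oligodendrocyte markers had median log2 fold changes of 0.94 and 0.85 in KO and 0.66 and 0.65 in anti-IL34 isolates, and no marker of these 3 cell types passed by edgeR in either comparison. The isolate with the most Hk1 among the anti-gp120 animals, animal 15 at 171 CPM, had the highest sums of that arm for neuron, astrocyte and oligodendrocyte markers, at 593, 4019 and 9267 CPM. In the other 3 arms the isolate with the most Hk1 led only some of these sums: neurons and astrocytes in Het animal 1, astrocytes in KO animal 3 and neurons in anti-IL34 animal 10. The part of neuronal, astrocyte or oligodendrocyte RNA in these Hk1 levels was not tested. Forebrain Hk1 was nearly level across arms, at 305 ± 10.1 CPM in Het, 310.0 ± 8.13 in KO, 296 ± 29.0 in anti-gp120 and 299.8 ± 18.02 in anti-IL34 animals.

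In the isolates, the log2 fold changes of the 2 glucose carriers were the nearest to 0 of the 10 genes, at -0.36 (SE 0.25) with deletion and 0.16 (SE 0.17) with antibody for Slc2a1, and 0.14 (SE 0.17) and 0.29 (SE 0.09) for Slc2a3. Slc2a1, the carrier of the blood-brain barrier, had isolate means of 307 ± 97.7 CPM in Het, 243 ± 9.17 in KO, 371 ± 77.9 in anti-gp120 and 387 ± 97.8 in anti-IL34 animals, with overlap in both experiments. Endothelial markers in the same isolates summed to 880 CPM in Het, 902 CPM in KO, 947 CPM in anti-gp120 and 951 CPM in anti-IL34 animals. Slc2a1 forebrain means were 46.9 ± 5.51, 41.2 ± 1.47, 53.8 ± 5.54 and 52.6 ± 2.93 CPM in the same order of arms, again overlapping. Slc2a3 was at 177 ± 1.98 CPM in Het, 185 ± 6.64 in KO, 166 ± 11.8 in anti-gp120 and 171 ± 11.2 in anti-IL34 forebrain. In isolates Slc2a3 lay between 17.3 and 27.4 CPM in all 15 libraries, and the 4 anti-IL34 libraries at 23.3 to 27.4 CPM were above the anti-gp120 libraries at 21.0 to 22.3 CPM.

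Ppp1r3b, a subunit that directs protein phosphatase 1 to glycogen, was at 52.4, 48.2, 46.2 and 41.6 CPM in Het isolates 1, 20, 21 and 23 and at 30.1, 31.1 and 14.2 CPM in KO isolates 3, 6 and 24. The arms were separate, but KO animal 24 had less than the other KO animals. In anti-gp120 isolates it ranged from 44.5 to 58.1 CPM and in anti-IL34 isolates from 24.9 to 36.0 CPM, also without overlap. The log2 fold changes were -0.89 (SE 0.25) and -0.65 (SE 0.15). Forebrain levels were 1.29 ± 0.209 CPM in Het, 1.09 ± 0.0573 in KO, 1.15 ± 0.361 in anti-gp120 and 1.43 ± 0.567 in anti-IL34 animals.

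In the edgeR fits, those of the 10 genes past the adjusted threshold of 0.05 were all lower under IL34 loss. In KO isolates they were Slc2a5, Mlxipl, Hk3 and Khk (4 of 10), where 5.37% of all genes tested passed and 5.22% passed as lower. In anti-IL34 isolates they were Slc2a5 and Hk2 (2 of 10), against 0.626% of all genes tested and 0.603% lower. Slc2a5 passed in KO forebrain (1 of 10, against 0.62% of all genes and 0.615% lower), and Slc2a5 and Mlxipl passed in anti-IL34 forebrain (2 of 10, against 0.717% and 0.525% lower). The arms did not overlap, with the treated arm lower, for 7 genes in KO forebrain (7.33% of all genes), 7 in KO isolates (19.1%), 3 in anti-IL34 forebrain (2.42%) and 5 in anti-IL34 isolates (10.1%). With the treated arm higher, 1 gene was separate in KO isolates (Hk1, against 20.7%) and 1 in anti-IL34 isolates (Slc2a3, against 4.88%). In KO forebrain markers of the oligodendrocyte lineage were also lower, with a summed level of 3691 to 4117 CPM against 4708 to 5551 CPM in Het, a median log2 fold change of -0.33 and 3 of 6 past the threshold. Their part in the forebrain values of the 10 genes was not tested. The median log2 fold change of the 10 genes was -0.32 in KO forebrain, -1.26 in KO isolates, -0.16 in anti-IL34 forebrain and -0.86 in anti-IL34 isolates, while the medians of all genes tested were 0.00, 0.02, 0.00 and 0.06. Nothing is read from these counts, since the genes were chosen with these contrasts known.

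The calls in isolates rested on few animals. Without Het animal 20, Het animal 23 or any single KO animal, none of the 10 genes, and no gene of the table, passed in KO isolates, whereas 7 of the 10 passed without Het animal 1, beside 31.5% of all genes tested, and 7 without Het animal 21, beside 17.2%. Without anti-IL34 animal 2, anti-IL34 animal 10 or anti-gp120 animal 7, none of the 10 passed in anti-IL34 isolates, 1 passed without anti-IL34 animal 24, anti-gp120 animal 1 or anti-gp120 animal 8, 5 passed without anti-IL34 animal 11, beside 3.02% of all genes, and 9 passed without anti-gp120 animal 15, beside 40.4% of all genes. In the other 6 of these fits 0 to 6 genes of the whole table passed. In KO forebrain none passed in any of the 7 fits that left out 1 animal, and in anti-IL34 forebrain 1 to 3 of the 10 passed in the 8 such fits, 1 of them without anti-IL34 animal 10, 11 or 24 or without anti-gp120 animal 7. Over all fits that left out 1 animal, the log2 fold changes between arms ran from -3.18 to -0.94 for Slc2a5 and from -1.85 to -0.94 for Mlxipl. In the same fits Khk ran from -1.12 to -0.91 and Hk3 from -1.52 to -1.36 in KO isolates, and Hk2 from -1.44 to -1.16 in anti-IL34 isolates.

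**Figure D3:**
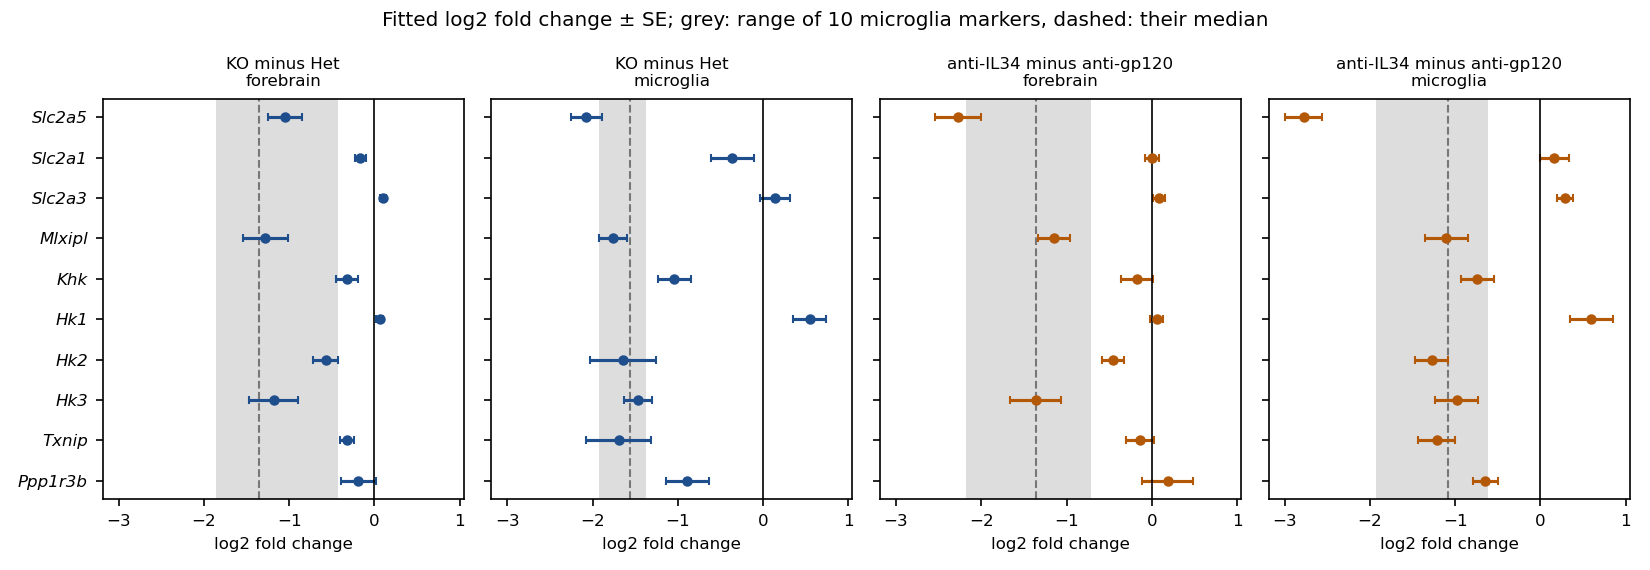
Log2 fold change (point) and SE (bar) of each gene in KO minus Het (blue) and anti-IL34 minus anti-gp120 (orange), in forebrain and isolated microglia, with the range of 10 microglia markers in grey and their median dashed. Slc2a5 lies below all 10 markers in both isolate comparisons and in anti-IL34 forebrain, at -2.07, -2.78 and -2.27, but not in KO forebrain.

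Because the summed microglia markers were lower under IL34 loss, each gene was set beside the 10 microglia markers. The marker medians were -1.35 in KO forebrain, -1.57 in KO isolates, -1.35 in anti-IL34 forebrain and -1.09 in anti-IL34 isolates, and 9, 10, 9 and 5 of the 10 markers passed. The log2 fold change of Slc2a5 was more negative than that of every marker in KO isolates, anti-IL34 isolates and anti-IL34 forebrain, while in KO forebrain 8 of the 10 markers were more negative than Slc2a5. Mlxipl lay within the range of the markers in all 4 comparisons, with 3 markers more negative in KO isolates and 5 in anti-IL34 isolates. Hk3 also lay within that range in all 4, Hk2 in all but anti-IL34 forebrain, Txnip in both isolate comparisons, and Khk and Ppp1r3b in anti-IL34 isolates, where 9 of the 10 markers were more negative than each of them.

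As a percentage of the summed CPM of these markers in the same library, Slc2a5 was 0.744% ± 0.0612 (SD, n = 4) in Het and 0.527% ± 0.0270 (n = 3) in KO isolates. It was 0.786% ± 0.0627 in anti-gp120 and 0.243% ± 0.0436 in anti-IL34 isolates (n = 4 each), and neither pair overlapped. In anti-IL34 forebrain it was 0.340% ± 0.0915 against 0.680% ± 0.103 with anti-gp120, again without overlap. KO forebrain was the exception, at 0.735% ± 0.202 against 0.666% ± 0.0443 in Het, overlapping. Of the 10 genes, Slc2a5 was the only gene whose percentage was lower without overlap in any of the 4 comparisons. Over all genes tested this held for 0.088% in KO isolates, 0.159% in anti-IL34 isolates, 0.0642% in anti-IL34 forebrain and 0.114% in KO forebrain, and nothing is read from it, since Slc2a5 was chosen with these contrasts known.

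The percentages of Mlxipl, Txnip and Hk2 overlapped between arms in both isolate comparisons. Mlxipl was 0.722% ± 0.0917 in Het and 0.640% ± 0.0743 in KO isolates, and 0.683% ± 0.108 and 0.705% ± 0.112 in the antibody arms. Txnip was 7.73% ± 1.51 in Het against 7.44% ± 0.317 in KO, and 8.24% ± 0.616 against 7.79% ± 0.825 with antibody. Hk2 was 1.62% ± 0.358 against 1.63% ± 0.191 and 2.24% ± 0.249 against 2.01% ± 0.237. Ppp1r3b was a higher percentage under IL34 loss, at 0.332% ± 0.0939 in Het against 0.512% ± 0.191 in KO isolates, with overlap, and 0.282% ± 0.0239 in anti-gp120 against 0.399% ± 0.0256 in anti-IL34 isolates, without overlap. Hk3 was 0.562% ± 0.0437 against 0.615% ± 0.0136, without overlap, and 0.541% ± 0.102 against 0.609% ± 0.0775, with overlap. Khk was also higher, at 0.121% ± 0.0117 in Het against 0.181% ± 0.0164 in KO and 0.128% ± 0.0208 in anti-gp120 against 0.171% ± 0.00697 in anti-IL34 isolates, without overlap. A higher percentage without overlap was the rule in the whole table, since the marker sum itself was lower: it was found for 89.5% of all genes tested in KO isolates and 84.2% in anti-IL34 isolates (5 of the 10 in each), and for 90.4% in KO forebrain and 92.4% in anti-IL34 forebrain (7 of the 10 in each). The higher percentages therefore say nothing particular of these genes. The 7 in forebrain were Txnip, Hk2, Khk, Ppp1r3b, Hk1, Slc2a1 and Slc2a3, with Txnip at 7.35% ± 1.07 in Het against 13.1% ± 1.65 in KO, and 4.36% ± 0.388 in anti-gp120 against 9.30% ± 2.59 in anti-IL34 animals. Mlxipl and Hk3 overlapped in both forebrain comparisons. These percentages have no test, because the markers themselves were lower and the sum moves with every one of them.

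**Figure D4:**
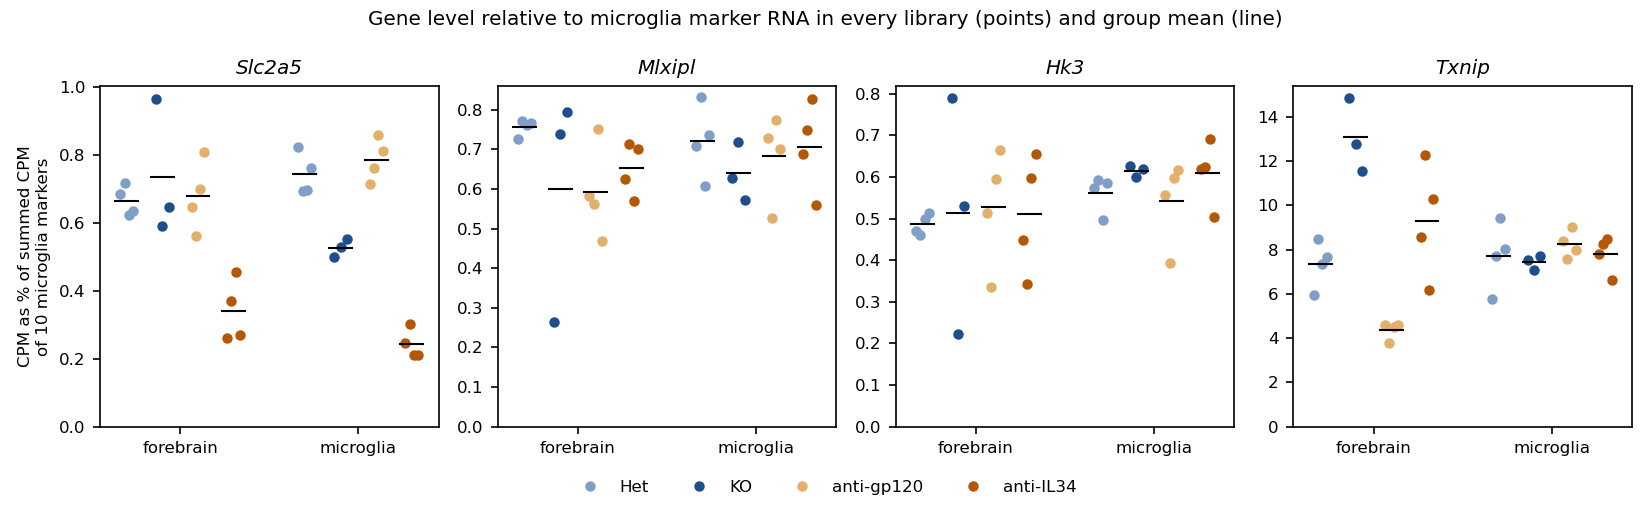
CPM of Slc2a5, Mlxipl, Hk3 and Txnip as a percentage of the summed CPM of 10 microglia markers in the same library, by tissue and arm, with 1 point per library and a line at the mean. The 4 anti-IL34 points of Slc2a5 lie below every anti-gp120 point in both tissues, while Mlxipl overlaps between arms of each experiment in the isolates.

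Whether the differences between arms were unequal in isolates and forebrain was tested as an interaction of arm and tissue. None of the 10 genes passed for the deletion (2.98% of all genes tested passed) or for the antibody (0.0924%). At an unadjusted p under 0.05 by edgeR there were 5 of the 10 for the deletion, beside 31% of all genes, and 3 of the 10 for the antibody, beside 21.1%, and DESeq2 called 3 and 2 of the 10 after adjustment, beside 22.4% and 8.86% of the genes to which it gave an adjusted p. With the animal as a block, no gene of the table passed either interaction. The values farthest from 0 were those of Txnip, whose log2 fold change was more negative in isolates by -1.35 (SE 0.40) with deletion and -1.10 (SE 0.31) with antibody. For Slc2a5 this difference was -0.99 (SE 0.27) with deletion and -0.51 (SE 0.39) with antibody. The median of all genes in the deletion interaction was 0.12, and 0.08 with relative-log-expression (RLE) size factors. In the antibody interaction it was 0.08, and 0.03 with RLE size factors. The differences of Txnip and Slc2a5 are therefore slightly larger relative to the other genes, by an amount that depends on the scaling.

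Deletion and antibody were compared within each tissue as the difference of their log2 fold changes. No gene of the 10 passed in forebrain (0.0101% of all genes tested) or in isolates (0% of all genes), with 1 of the 10 at an unadjusted p under 0.05 in each by edgeR (3.07% and 3.95% of all genes) and none called by DESeq2 (0.161% and 0.227% of all genes with an adjusted p). The log2 fold change of Slc2a5 was less negative with deletion by 1.22 (SE 0.34) in forebrain and 0.69 (SE 0.31) in isolates. For Mlxipl the difference was -0.14 (SE 0.33) in forebrain and -0.64 (SE 0.32) in isolates. The 2 experiments differ in their controls and in their animals. Genotype of the control, kind of IL34 loss and the experiment itself therefore cannot be told apart in this comparison. The same holds for the orders of the arms across experiments given above.

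Other genes of sugar metabolism were read from 7 lists with 91 genes. In KO isolates 10 of the 84 genes tested passed, all as lower, beside the 5.37% of all genes that passed. At an unadjusted p under 0.05 there were 20 lower and 14 higher, where 18.2% of all genes tested were lower and 14.4% higher. Those that passed were 4 of 11 other sugar transporters (Slc37a2, a sugar-phosphate exchanger of myeloid cells, with log2 fold change -1.43, SE 0.26, Slc2a9, a urate and sugar carrier, with -0.85, SE 0.14, Slc37a1 with -0.82, SE 0.17, and Slc2a8 with -0.80, SE 0.15) and 2 of 11 partners and targets of the carbohydrate response. Those 2 were Arrdc4, the close relative of Txnip (-0.95, SE 0.18), and Mlxip, which encodes the MondoA paralogue of ChREBP (-0.89, SE 0.17). The pentose phosphate pathway gave 2 of 8 genes, H6pd (-0.77, SE 0.15) and Rpia (-0.77, SE 0.15). Glycogen metabolism gave 1 of 22, Phka2, a regulatory subunit of phosphorylase kinase (-0.88, SE 0.15), and glycolysis gave 1 of 23, Pfkfb4 (-0.48, SE 0.10). None passed among 5 fructose and polyol enzymes and 4 monocarboxylate transporters. List medians in KO isolates ran from -0.16 for the pentose phosphate pathway to 0.45 for the carbohydrate-response list, against 0.02 for all genes tested.

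In anti-IL34 isolates none of the 82 listed genes tested passed by edgeR, with 13 lower and 6 higher at an unadjusted p under 0.05, where 15.3% of all genes tested were lower and 10.6% higher. The values of the genes called with deletion were -1.19 (SE 0.31) for Slc37a2, -0.74 (SE 0.14) for Arrdc4, -0.63 (SE 0.20) for Slc2a9 and -0.40 (SE 0.17) for Mlxip. They were -0.66 (SE 0.19) for H6pd, -0.64 (SE 0.16) for Slc2a8, -0.55 (SE 0.18) for Rpia, -0.38 (SE 0.19) for Phka2 and -0.09 (SE 0.22) for Pfkfb4, while Slc37a1 lay on the other side of 0 at 0.29 (SE 0.27). In forebrain none of 86 listed genes passed with deletion and none of 83 with antibody. Like the calls among the 10 genes, those in KO isolates were lost without any 1 of the 5 animals named above.

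**Figure D5:**
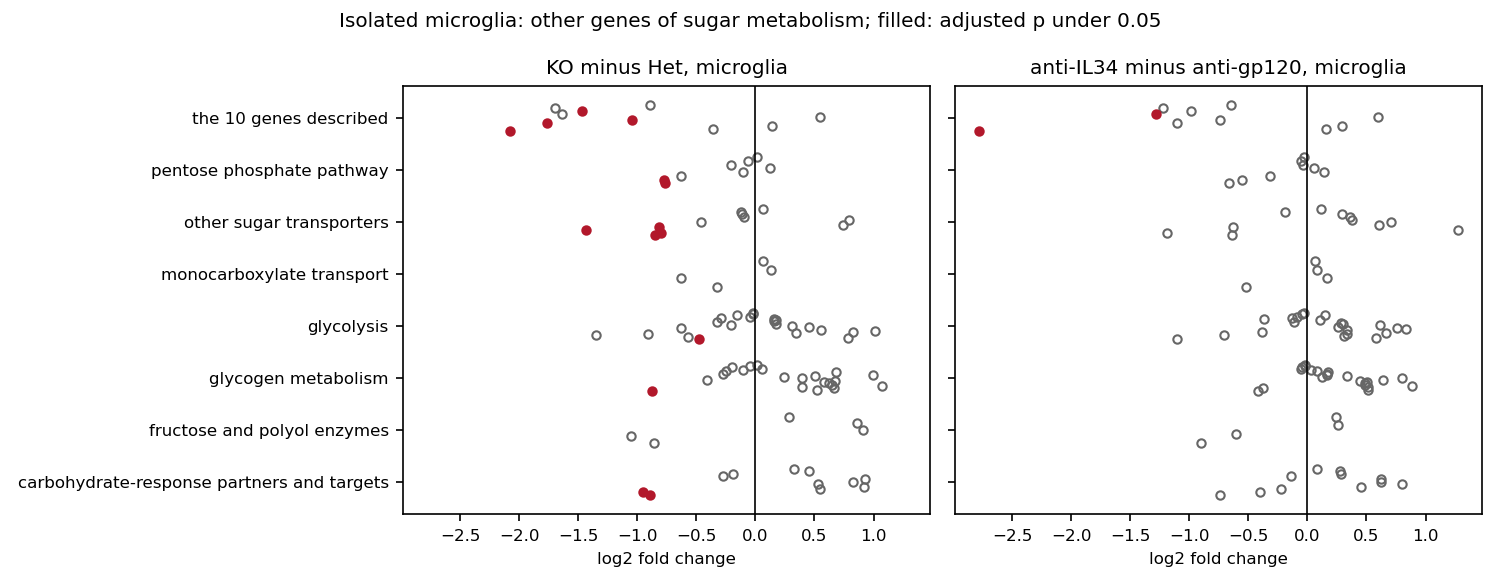
Log2 fold change of each tested gene of 7 sugar metabolism lists and of the 10 genes described, in KO minus Het (left) and anti-IL34 minus anti-gp120 isolates (right), filled where the edgeR adjusted p was under 0.05. The filled points of the lists lie between -1.43 and -0.48 in KO isolates, and there are none in anti-IL34 isolates.

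The genes whose levels followed Slc2a5 most closely over the 15 isolate libraries, among 15698 genes with a mean of at least 1 CPM, were Bank1 (Pearson r of log2 levels 0.987), Fcrl2 (0.985), Tlr5 (0.981), Arsb (0.980) and Gpr165 (0.979). For Mlxipl they were Fmnl3 (0.991), Arhgap27 (0.989), Plcb2 (0.989), Hk3 (0.989) and Cyth4 (0.988). In the 15 forebrain libraries the closest to Slc2a5 among 15436 genes were Parvg (0.960), Syk (0.942), Fcrl2 (0.941), 8030442B05Rik (0.938) and Rubcnl (0.937). These values describe libraries that share their arms, and with them the differences in microglia marker RNA given above.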

How the data were processed

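RNA-seq counts per gene were deposited by the authors as 1 table of raw counts, with reads aligned by STAR 2.7.5c to GRCm38 and counted by featureCounts 1.6.3, per the submitters' processing notes. Libraries were made with a SMART-Seq v4 kit, per the labels' protocols, and whether strand was used in counting is not given in the sources used here. Each of the 30 labelled libraries was matched to its column by name, and 6 further columns of counts without a label were left out. The deposited length column, other than counts, equals the whole gene span for 10 of 10 genes, so levels per length use the union of exons instead. The authors' TPM values were not used.

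Every comparison was fitted on the whole table with edgeR 4.0.16 (R 4.3.3): TMM scaling, filterByExpr by group, glmQLFit with sex as covariate (and experiment in the tissue contrast), quasi-likelihood F test, Benjamini-Hochberg adjustment over all genes tested, threshold 0.05. Standard errors were derived from F, as the fold change on the log2 scale over its root, and each fit held only the groups compared. Where arms were compared within a tissue, the p-values measure the spread between the animals of these arms. Where both tissues entered, the main fit had no animal term. There the 2 libraries of an animal were treated as independent. The script was tested on simulated data: with 100 genes changed by a log2 fold change of 1 and 100 by 2, it recovered 21 and 73 in KO minus Het isolates (18185 genes) and 85 and 95 in KO minus Het forebrain (19343 genes). Replicate numbers name animals, so they pair the 2 tissues of an animal but no arms. The same-animal correlation of deviations from group means had a median of 0.156 over 15 animals (0.0397 to 0.329). Between animals of an arm the median was -0.05. Centring on group means ties this value to the same-animal value with the opposite sign, so it is not a separate baseline.

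Alternatives were DESeq2 1.42.0, RLE size factors, no filter on low counts, no sex terms, a fit over all 15 libraries of a tissue, the animal as a block where both tissues enter, and leaving out each animal. Total counts of 15064391 to 75158213 leave fewest reads for forebrain Mlxipl, 6 in 1 library. All 10 genes are named in each comparison; from each pathway list, at most 4 genes past the threshold with the smallest p; and the 5 genes of highest Pearson correlation of log2(CPM + 1) with Slc2a5 and Mlxipl. The 10 genes and all lists were chosen with earlier results of these data known.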

Additional observations from a re-analysis of the deposited data

Results flagged for a closer look

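In 4 of the 60 groups of 4 libraries tested, 1 library stood far from the other 3 of its group, where chance gives about 1 in 20 groups. Slc2a5 was at 29.7 CPM in the isolate of anti-IL34 animal 11, against 14.9 to 15.8 CPM in the others, and this animal was the only female of its arm and had the highest microglia marker sum of it, 9800 CPM. Txnip was at 13.8 CPM in the forebrain of anti-gp120 animal 15, against 20.7 to 21.1 CPM. Ppp1r3b was at 1.5995 CPM in the forebrain of Het animal 21, against 1.16 to 1.23 CPM, and at 58.1 CPM in the isolate of anti-gp120 animal 1, against 44.5 to 45.2 CPM.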

How the results depend on the processing

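Of the 10 genes, those past the threshold in KO minus Het forebrain numbered 1, and 5 with no filter on low counts, 3 with DESeq2 and 2 with no sex terms. In KO minus Het isolates they numbered 4, and 7 with no filter, 8 with DESeq2 and 7 in a fit over all 15 libraries of the tissue. In anti-IL34 minus anti-gp120 isolates they numbered 2, and 7 with no filter, 8 with DESeq2, 7 with no sex terms and 6 in a fit over all 15 libraries. In anti-IL34 minus anti-gp120 forebrain they numbered 2, and 3 with no filter, with DESeq2 and in a fit over all 15 libraries, the third being Hk3. In the deletion-by-tissue interaction they numbered 0, and 2 with no filter, 3 with DESeq2 and 2 with no sex terms, and in the antibody-by-tissue interaction 0, and 3 with no filter and 2 with DESeq2. Leaving out 1 animal at a time gave 0 to 0 in KO forebrain, 0 to 7 in KO isolates, 1 to 3 in anti-IL34 forebrain, 0 to 9 in anti-IL34 isolates, 0 to 5 in the deletion interaction and 0 to 4 in the antibody interaction. Over all genes these fits gave 55 to 117, 0 to 5756, 25 to 126, 0 to 6905, 0 to 5688 and 0 to 5565 in the same order. All 10 passed between tissues and none between deletion and antibody under each alternative run. In KO forebrain Slc2a5, the only 1 of the 10 called in the main fit, was called in 4 of the 5 alternatives that kept all animals. Mlxipl, not called there in the main fit, was also called in 4 of those 5. Over all genes, the numbers past the threshold went from 120 to 381 (no filter) in KO forebrain, 976 to 3887 (DESeq2), 2734 (15 libraries), 2189 (no sex terms) and 1993 (no filter) in KO isolates, 123 to 349 (no filter), 204 (15 libraries) and 198 (DESeq2) in anti-IL34 forebrain, and 110 to 2015 (DESeq2), 988 (15 libraries), 983 (no sex terms) and 819 (no filter) in anti-IL34 isolates. Adding a replicate block for each animal took the genes past the threshold from 16663 to 16529 between tissues, from 599 to 0 in the deletion interaction and from 17 to 0 in the antibody interaction; of the 10 genes the pairing gave 10, 0 and 0, as without it. The antibody interaction gave 48 with RLE size factors, 222 with no sex terms, 1092 with DESeq2 and 1352 with no filter, and the deletion interaction 2400 with no sex terms, 3635 with DESeq2 and 1569 with no filter. Deletion against antibody gave 2 in forebrain (4 with no sex terms, 28 with DESeq2, 114 with no filter) and 0 in isolates (35 with DESeq2, 1 with no filter). The cause of these shifts was not tested.

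Differences near 0 changed sign. Slc2a1 in anti-IL34 forebrain was 0.0031 and -0.0077 with no sex terms. Mlxipl in the antibody interaction was 0.04, and -0.032 with DESeq2, -0.017 with RLE size factors, -0.0027 with no sex terms and -0.069 with the replicate block. Hk1 in deletion minus antibody forebrain was -0.0023, and 0.0028 with DESeq2, 0.0030 with RLE size factors, 0.0091 with no filter and 0.014 with no sex terms. Leaving out 1 animal, sign changes arose in these ranges: Slc2a3 -0.042 to 0.30 in KO isolates and -0.12 to 0.19 in the deletion interaction; Slc2a1 -0.038 to 0.064 and Ppp1r3b -0.051 to 0.43 in anti-IL34 forebrain; Slc2a1 -0.013 to 0.21, Mlxipl -0.20 to 0.31 and Hk3 -0.086 to 0.64 in the antibody interaction. In deletion minus antibody forebrain they were Slc2a3 -0.021 to 0.091, Mlxipl -0.48 to 0.12, Khk -0.23 to 0.035, Hk1 -0.040 to 0.056, Hk2 -0.23 to 0.032 and Hk3 -0.038 to 0.67, and in isolates Slc2a3 -0.29 to 0.027, Hk1 -0.22 to 0.19 and Ppp1r3b -0.40 to 0.0072. Depth limits the forebrain values of Mlxipl, Hk3 and Slc2a5 most, whose lowest counts were 6, 9 and 12.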
